A study of Mus musculus with 24 samples.

Results

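The genes of the SR proteins and of the core spliceosome were followed through the activation and skewing of mouse CD4+ T cells. They were taken by name alone, although earlier results of these data were known when the members were chosen. Every symbol of the deposited table beginning with Srsf and a number, with Snrp, or with Sf3a or Sf3b and a number entered. This gave 31 of 22009 named genes: 11 SR genes and 20 genes of core subunits. The core genes encode 7 proteins of the Sm ring (Snrpb, Snrpd1, Snrpd2, Snrpd3, Snrpe, Snrpf and Snrpg), 2 proteins of the U1 particle (Snrpa and Snrpc), 2 of the U2 particle (Snrpa1 and Snrpb2), the 3 proteins of SF3A (Sf3a1 to Sf3a3) and 6 proteins of SF3B (Sf3b1 to Sf3b6).

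All cells came from the spleen of adult wildtype C57BL/6 mice, pooled and enriched for CD4+ cells by magnetic negative selection. There were 24 RNA-seq libraries in all. The resting group had 2 libraries of unstimulated cells. Th0 cultures received anti-CD3 and anti-CD28, Th1 cultures also anti-IL-4 and IL-12, and Th2 cultures also IL-4 with antibodies to IFN-γ and IL-12, with 1 library for each of these conditions at 4, 8, 12, 16, 20 and 24 h. The other 4 libraries followed 16 h of stimulation and a further period in actinomycin, an inhibitor of transcription, of 0, 1, 2 or 4 h; their skewing condition is not given. Resting libraries and cultures bear different tags in their titles, and in every comparison with resting cells a change of preparation and the effect of activation cannot be told apart.

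The spliceosome removes introns from transcripts. Most of its small nuclear ribonucleoproteins (snRNPs), U1 and U2 among them, hold a short RNA on which the Sm proteins close into a ring. The U1 particle recognises the start of the intron and the U2 particle its branch site, where SF3A and SF3B clamp it to the transcript. SR proteins bind enhancer sequences in exons through RNA recognition motifs and recruit these particles through domains rich in arginine and serine, which SRPK and CLK kinases phosphorylate. Genes of SR proteins are known for transcripts with an added exon that carries a stop codon and leads to nonsense-mediated decay, a loop by which an SR protein can limit its own mRNA. T cells that leave the resting state enlarge and raise their RNA output, and in bulk RNA fewer cells of a type and less RNA per cell cannot be told apart.

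The promoters of 27 of the 31 genes were found in RefSeq (GRCm38.p6), as 250 bases before to 50 bases after each annotated start, with 32 windows in all because some genes have several starts. Windows of 4 genes are shown, since the expression of Snrpa1 and Snrpa rose most among the U2 and U1 genes, and Sf3b1 and Srsf5 were the genes whose expression fell. Capitals mark the GC box (GGGCGG), the ETS core (CCGGAAG), the E-box (CACGTG) and the CCAAT box (CCAAT), searched on both strands; joined capitals mark motifs that touch or overlap.

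Snrpa1, chr7:66060086-66060385, plus strand: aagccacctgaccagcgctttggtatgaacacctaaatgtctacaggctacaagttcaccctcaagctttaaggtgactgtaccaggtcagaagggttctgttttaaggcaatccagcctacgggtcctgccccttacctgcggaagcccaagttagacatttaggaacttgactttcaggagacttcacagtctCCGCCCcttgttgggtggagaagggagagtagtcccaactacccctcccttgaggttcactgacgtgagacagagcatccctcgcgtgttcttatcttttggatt

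Snrpa, chr7:27196222-27196521, minus strand: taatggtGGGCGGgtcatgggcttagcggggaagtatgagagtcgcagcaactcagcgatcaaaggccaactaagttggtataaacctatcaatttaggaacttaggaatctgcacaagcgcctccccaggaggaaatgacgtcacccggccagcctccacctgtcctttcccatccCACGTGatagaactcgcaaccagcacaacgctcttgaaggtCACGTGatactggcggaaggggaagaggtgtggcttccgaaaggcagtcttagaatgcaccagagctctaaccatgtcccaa

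Sf3b1, chr1:55027429-55027728, minus strand: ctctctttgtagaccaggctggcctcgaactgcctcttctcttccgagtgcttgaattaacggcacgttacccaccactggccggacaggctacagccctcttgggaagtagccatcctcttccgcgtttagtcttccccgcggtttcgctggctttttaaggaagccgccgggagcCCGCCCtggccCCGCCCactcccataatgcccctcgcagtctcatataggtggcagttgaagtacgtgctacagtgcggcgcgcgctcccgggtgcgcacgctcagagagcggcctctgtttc

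Srsf5, chr12:80945249-80945548, plus strand: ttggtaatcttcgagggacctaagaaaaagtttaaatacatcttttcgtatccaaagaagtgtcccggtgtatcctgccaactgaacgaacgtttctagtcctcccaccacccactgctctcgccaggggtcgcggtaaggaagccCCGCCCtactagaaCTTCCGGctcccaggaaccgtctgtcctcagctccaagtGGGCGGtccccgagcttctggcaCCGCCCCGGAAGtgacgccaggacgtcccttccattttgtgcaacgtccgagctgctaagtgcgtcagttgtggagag

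The ETS core was present in 17 of the 32 windows, against 8.86% of all 32851 promoter windows, and in 14 of the 27 genes, against 22.2% of the genes tested over the time course that had a window. It was found in 10 of 16 core genes and in 4 of 11 SR genes. The GC box was present in 22 of the 32 windows, against 35.7% of all windows. By gene it was found in 10 of 11 SR genes and 9 of 16 core genes, against 69.1% of tested genes. The CCAAT box was present in 10 windows, against 37.4% of all. The E-box was found in Snrpa alone, in both of its windows, against 7.15% of all windows. Srsf5 held the ETS core and the GC box and Sf3b1 the GC box, as windows of risen genes did, and the matches are a description only.

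Depth was recovered from the spacing of low RPKM values and was 17512385 to 33017133 mapped reads per library. T cell markers, with 7 of 8 in the table, were high throughout but fell. Their summed level was 2009 to 2032 RPKM at rest and 1223 to 1473 RPKM at 24 h. Markers of other cells moved with time too. The summed level of 7 of 9 red cell markers in the table was 38837 to 42382 RPKM at rest and 142 to 212 RPKM at 24 h, that of 6 macrophage markers was 426 to 448 RPKM at rest and 4.38 to 6.11 RPKM at 24 h, that of 2 CD8 markers was 12.4 to 12.7 RPKM at rest and 7.44 to 11.9 RPKM at 24 h, and that of 5 B cell markers was 62.2 to 72.3 RPKM at rest and 8.83 to 18.2 RPKM at 24 h. None of these markers was at 0 in all libraries of rest or of a time point, and their part in the differences from resting cells was not tested. Cultures of 1 time point differed in relation to base composition: the Spearman rho of the log2 difference from the other cultures with GC content ran from −0.45 in Th1 at 4 h to 0.31 in Th1 at 24 h across 10647 genes, which are not independent, and was −0.36 in Th2 at 24 h. That last library held the highest value of the 18 cultures for 10 of the 31 genes and the lowest for Srsf5, so results are also given without it.

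Of the 31 genes, 30 had a mean of at least 1 RPKM and were tested with limma on log2(RPKM + 0.5), fitted over all genes with Benjamini-Hochberg adjustment; a gene is called changed at an adjusted p under 0.05. The remaining gene, Srsf12, was at 1.12 and 0.921 RPKM at rest and lay below both in 17 of 18 cultures, with a median of 0.359 RPKM over the cultures. RPKM is relative to all mRNA of a library, so a rise or fall is one of share and was not measured per cell. Each time point was represented by its Th0, Th1 and Th2 cultures. Differences between skewing conditions are therefore part of the spread, and p-values measure the spread between cultures from 1 pool of cells.

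The main change was a rise of most core genes between 4 and 12 h. At 4 h, 1 of the 30 genes was higher than in resting cells (background over all genes 11.5%) and 1 was lower (background 20.2%), and no core gene was called. At 8 h, 22 were higher (background 22.5%) and 1 was lower (background 27.9%); the calls numbered 14 in all without resting replicate 2 and 12 without the Th1 cultures. At 12 h, 25 were higher (background 28.9%) and 1 was lower (background 32.5%). At 16 h, 26 were higher (background 30.3%) and 2 were lower (background 29.4%). At 20 h, 26 were higher (background 32.1%) and 2 were lower (background 31.7%). At 24 h, 26 were again higher (background 31.6%) and 2 were lower (background 33.6%), and without the Th2 library of that time 27 were higher and 2 lower. The median log2 change of the 20 core genes was 0.12 at 4 h, 0.63 at 8 h, 0.92 at 12 h and 1.11 at 24 h, and that of the 10 SR genes was 0.20, 0.48, 0.66 and 0.71; over all 10897 genes tested it stayed between −0.07 and −0.01 from 4 to 24 h.

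**Figure D1:**
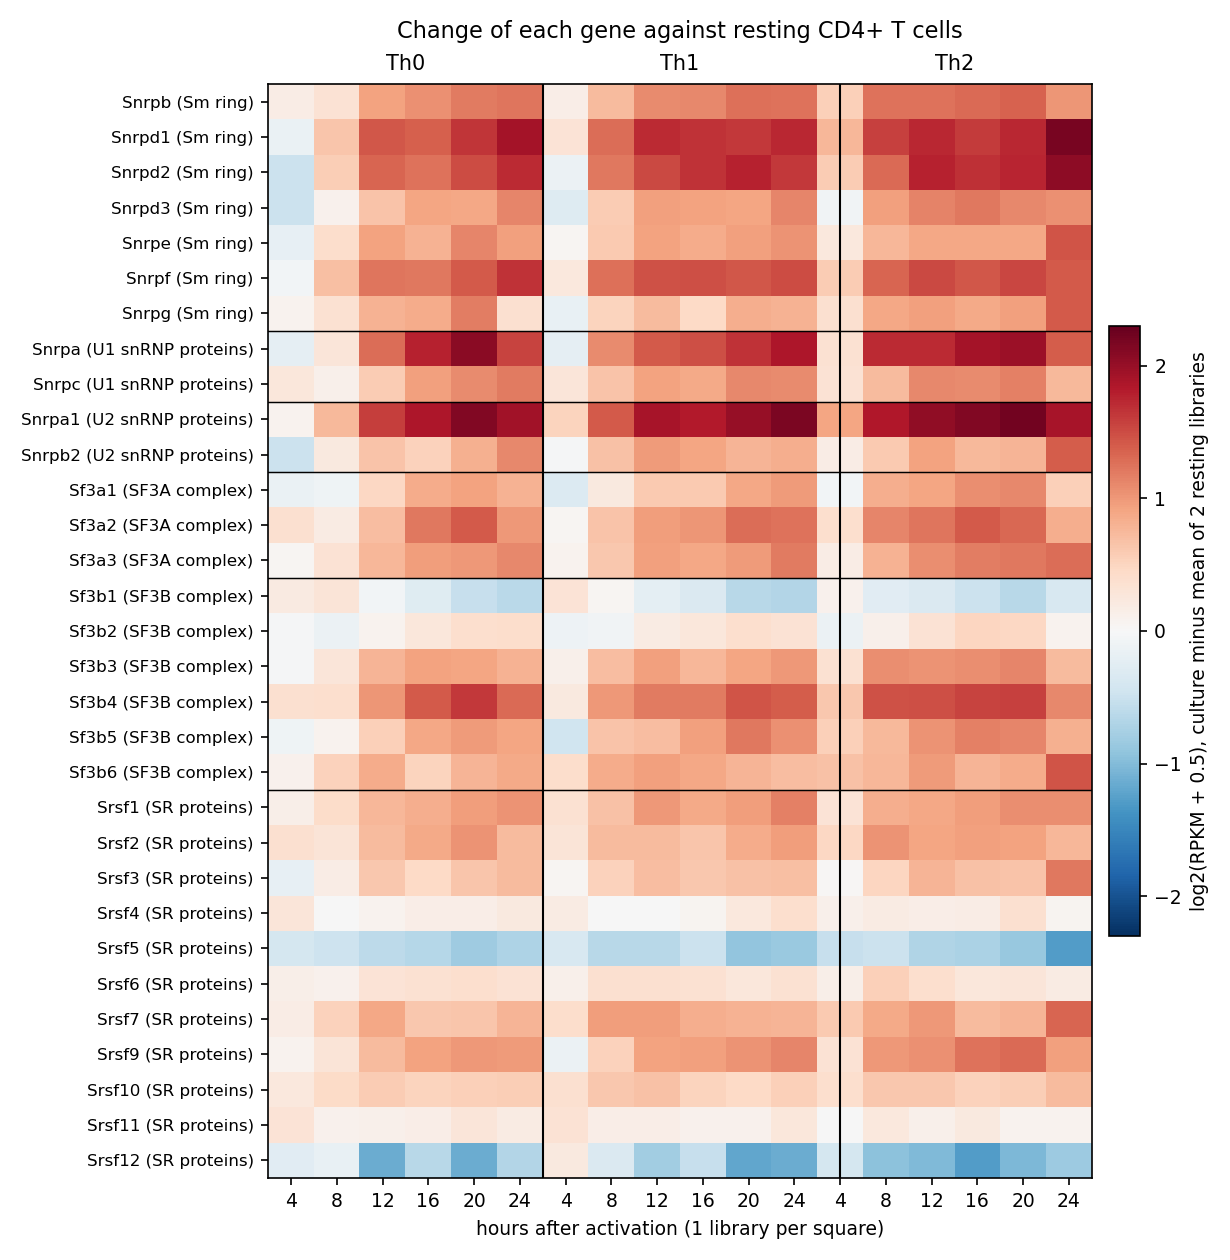
Difference in log2(RPKM + 0.5) between each culture and the mean of the 2 resting libraries, for the 31 genes in rows, grouped by role, and 18 cultures in columns, ordered by condition and hours after activation; 1 library per square, red higher and blue lower. Most core genes turned red by 8 or 12 h, while Srsf5 and Srsf12 were blue in most columns and Sf3b1 passed from red to blue.

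At 24 h, 16 of the 30 genes were at least 2-fold higher (background 12.7%) and none was at least 2-fold lower (background 17.4%). Of these 16, 14 were core genes and 2 were SR genes. On this stricter rule 6 of 7 Sm genes, both U1 and both U2 genes, 2 of 3 SF3A genes and 2 of 6 SF3B genes had risen.

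Among the Sm genes, all 7 were called higher at 24 h (background 31.6%). Snrpd1 (ENSMUSG00000002477.5) was at 57.5 and 51.8 RPKM at rest, and in Th0, Th1 and Th2 it was at 49.2, 67.6 and 93.0 RPKM at 4 h, 85.3, 133 and 163 RPKM at 8 h, and 207, 183 and 251 RPKM at 24 h. Every culture from 8 h on was above both resting libraries. Its log2 change at 24 h was 1.95 ± 0.24 (SE; limma, adjusted p = 4.49e-06), and 1.82 without the Th2 library of 24 h. Snrpd2 (ENSMUSG00000040824.3; chromosome 7 of GRCm38, 19149722 to 19153542), which pairs with D1 in the ring, was at 94.0 and 82.9 RPKM at rest, at 62.7, 80.3 and 133 RPKM at 4 h in Th0, Th1 and Th2, and at 292, 275 and 368 RPKM at 24 h. At 4 h the resting values lay inside the range of the cultures, and by 24 h all cultures were well above them (log2 change 1.80 ± 0.26, limma, adjusted p = 2.16e-05). Snrpf rose by 1.52 ± 0.19 on the log2 scale (limma, adjusted p = 3.43e-06). However, 73.2% of its windows lie opposite to Ccdc38 and 4933408J17Rik, and strand is not stated for the counting. On the same strand, 21.3% of its windows are shared with genes such as Gm13092, so its values are uncertain. The other 4 Sm genes rose by 0.86 (Snrpg) to 1.16 (Snrpb). Snrpg was the smallest and was uneven at 24 h, at 141 RPKM in Th0, 191 in Th1 and 290.2 in Th2; without that Th2 library its log2 change was 0.59.

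The U2 gene Snrpa1 (ENSMUSG00000030512.13; chromosome 7, 66059003 to 66074587), which encodes the A′ protein of the particle and whose promoter is shown above, had the largest rise of the 30 genes. The RefSeq window shown begins at base 66060086, inside these bounds, which come from GENCODE. Snrpa1 was at 27.7 and 28.2 RPKM at rest. In Th0, Th1 and Th2 it reached 29.4, 40.1 and 52.7 RPKM at 4 h, 47.2, 75.02 and 102 RPKM at 8 h, 85.0, 105 and 116 RPKM at 12 h, 103, 100.4 and 124 RPKM at 16 h, 124, 113 and 132 RPKM at 20 h, and 108, 127 and 106 RPKM at 24 h. All 18 cultures were above both resting libraries, and the log2 change at 24 h was 2.00 ± 0.25 (limma, adjusted p = 5.11e-06). Its partner Snrpb2, for the B″ protein, rose by 1.11 ± 0.20. Of the U1 genes, Snrpa, for the A protein of the particle, was at 30.5 and 28.9 RPKM at rest and at 88.5, 110 and 78.8 RPKM in Th0, Th1 and Th2 at 24 h (log2 change 1.61 ± 0.30, limma, adjusted p = 0.000179). Of the 50-base windows along Snrpa transcripts, 16.6% occur on the opposite strand in other genes, such as BC024978. A further limit is that 9.68% are shared on the same strand, with genes such as Gm5145. Snrpc, for the C protein that helps U1 to contact the intron start, rose by 1.01 ± 0.18.

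The SF3A genes rose by 0.78 (Sf3a1) to 1.19 (Sf3a3) on the log2 scale at 24 h. Sf3a3 was at 48.3 and 42.3 RPKM at rest and at 97.4, 104 and 110.3 RPKM at 24 h. The SF3B genes were not alike. Sf3b4 (1.27 ± 0.22), Sf3b6 (1.01 ± 0.19), Sf3b5 (0.92 ± 0.24) and Sf3b3 (0.84 ± 0.18) rose, and Sf3b2 changed by 0.28 ± 0.12 (limma, adjusted p = 0.0472), a call that was lost under 8 of 16 alternatives. In Sf3b4, 43.6% of the 50-base windows along its transcripts were found in Gm7935 too, so its reads could be split or shared and its values are uncertain.

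Sf3b1 (ENSMUSG00000025982.13; chromosome 1, 54985169 to 55027481), which encodes the largest SF3B protein and contacts the branch site, was the only one of the 20 core genes to fall. It was at 186 and 180.5 RPKM at rest, at 212, 229 and 197 RPKM at 4 h in Th0, Th1 and Th2, at 225, 189 and 153 RPKM at 8 h, at 150.3, 145 and 130.3 RPKM at 16 h, and at 119, 115 and 142 RPKM at 24 h. The 3 cultures at 4 h were above both resting libraries, although the change at 4 h was not called (log2 change 0.21 ± 0.14, limma, adjusted p = 0.277), and all 12 cultures from 12 h on were below both. At 24 h it had fallen by 0.55 ± 0.14 on the log2 scale against rest (limma, adjusted p = 0.00262), and by 0.76 against 4 h (limma, adjusted p = 6.46e-05). The call at 24 h held under all 16 alternatives.

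**Figure D2:**
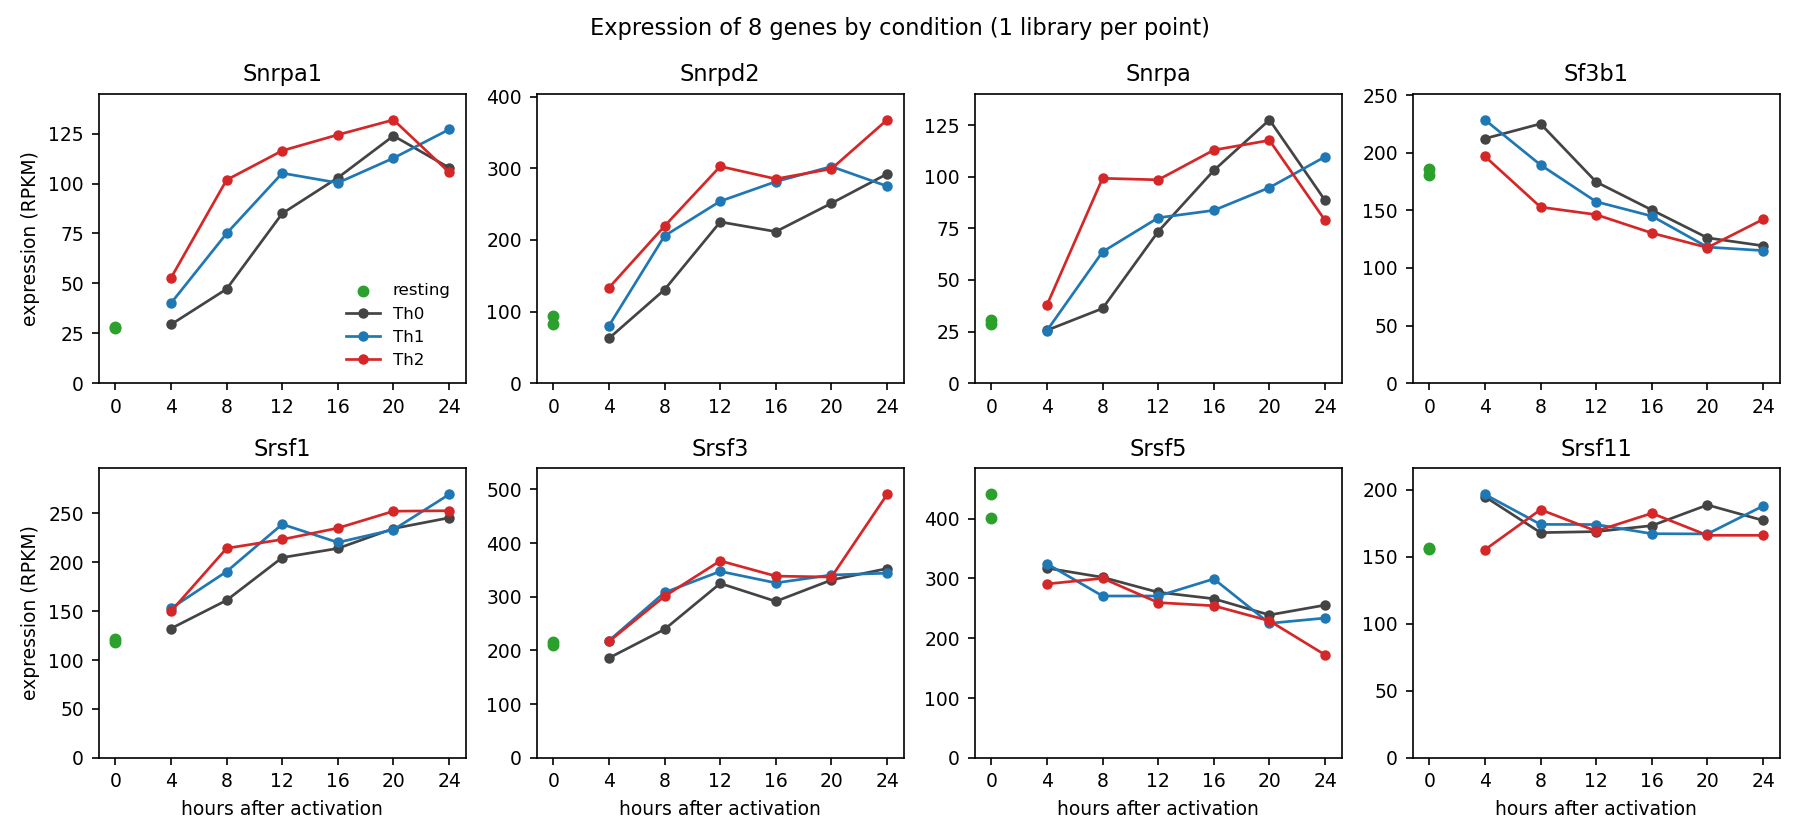
Expression in RPKM (vertical axes, from 0) against hours after activation for 8 genes, with the 2 resting libraries at 0 h and 1 library per condition at each later time. Snrpa1, Snrpd2 and Snrpa climbed earliest in Th2 and latest in Th0, Sf3b1 and Srsf5 declined, and Srsf11 stayed between 155 and 196 RPKM.

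Of the 10 SR genes tested, 7 were higher at 24 h (background 31.6%), 1 was lower (background 33.6%) and 2 were not called. Srsf1, which represses or activates splicing in many transcripts and also acts in translation, was at 122 and 118 RPKM at rest, at 132, 153 and 149.8 RPKM at 4 h in Th0, Th1 and Th2, and at 245, 269 and 253 RPKM at 24 h. All 18 cultures were above rest (log2 change at 24 h 1.09 ± 0.11, limma, adjusted p = 7.24e-07). Srsf9, a close relative of Srsf1, was at 37.4 and 36.6 RPKM at rest and at 73.6, 81.7 and 71.5 RPKM at 24 h (1.02 ± 0.18). These were the 2 SR genes with a rise of at least 2-fold.

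Srsf7 and Srsf3, small SR proteins that also serve in mRNA export, were next. Srsf7 was at 93.3 and 84.6 RPKM at rest, at 99.9, 117 and 136 RPKM at 4 h, and at 153, 154 and 226 RPKM at 24 h in Th0, Th1 and Th2. Its log2 change at 24 h was 0.97 ± 0.17, or 0.78 without the Th2 library of 24 h, which was its highest. Srsf3 was at 216 and 209 RPKM at rest, at 186, 218 and 217 RPKM at 4 h, and at 353, 344 and 491 RPKM at 24 h (0.88 ± 0.14, or 0.71 without that library). Both genes thus had 2 cultures close together at 24 h and the Th2 culture well above them. Of the 50-base windows along Srsf3 transcripts, 10.0% are found in other genes too, such as Gm12355.

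Srsf2, which also acts in transcription elongation, was at 203 and 211 RPKM at rest and at 344, 405 and 350.4 RPKM at 24 h (0.82 ± 0.16) and 20.7% of its windows occur on the opposite strand in Mettl23 and Mfsd11. Srsf10, a splicing repressor once dephosphorylated, was called at 4 h already (log2 change 0.33 ± 0.09, limma, adjusted p = 0.0112) and changed by 0.61 ± 0.09 at 24 h. It was at 90.6 and 85.6 RPKM at rest, between 104 and 115 RPKM at 4 h and between 129 and 146 RPKM at 24 h, without overlap. The 4 h call was lost when only the libraries of rest and 4 h were fitted, without resting replicate 2 and without the Th1 cultures.

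Srsf5 (ENSMUSG00000021134.17; chromosome 12, 80945504 to 80950507) was the SR gene that fell. It had the highest level of the 31 genes at rest, 440.5 and 401 RPKM, and all 18 cultures were below both. It was at 317, 324 and 291 RPKM at 4 h in Th0, Th1 and Th2, at 302, 271 and 300.2 RPKM at 8 h, at 277, 271 and 259.5 RPKM at 12 h, at 266, 299 and 254 RPKM at 16 h, at 239, 225 and 229 RPKM at 20 h, and at 255, 234 and 172 RPKM at 24 h. The log2 change was −0.44 ± 0.13 at 4 h (limma, adjusted p = 0.0187) and −0.95 ± 0.13 at 24 h (limma, adjusted p = 1.36e-05), or −0.78 at 24 h without the Th2 library. The call at 4 h was lost without either resting library and without the Th1 cultures, and that at 24 h held under all 16 alternatives.

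Srsf4, Srsf6 and Srsf11 moved little. Srsf6 was at 164 and 159 RPKM at rest and at 203, 206 and 185 RPKM at 24 h, and its call (0.29 ± 0.11, limma, adjusted p = 0.0275) was lost under 5 of 16 alternatives. Srsf4 was at 45.6 and 46.1 RPKM at rest and at 53.5, 59.8 and 48.2 RPKM at 24 h (0.22 ± 0.11, limma, adjusted p = 0.0804), and 39.5% of its windows lie opposite to Gm12992. Srsf11 was at 156 and 156 RPKM at rest and between 166 and 188 RPKM at 24 h (0.18 ± 0.11, limma, adjusted p = 0.153).

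From 4 to 24 h, a contrast whose estimates do not use the resting libraries, 25 of the 30 genes rose (background 33.6%) and 2 fell (background 32.9%). The resting libraries stayed in the fit and so entered the spread behind these calls. All core genes but Sf3b1 rose, with the largest rises in Snrpd2 (1.81 ± 0.24), Snrpd1 (1.64 ± 0.22) and Snrpa (1.63 ± 0.26). Among the SR genes, Srsf9 (0.93), Srsf3 (0.92), Srsf1 (0.82), Srsf7 (0.58), Srsf2 (0.44) and Srsf10 (0.28) rose and Srsf5 fell by 0.51. The median was 0.94 for the core genes and 0.36 for the SR genes, against −0.01 for all genes tested. Red cell markers summed to 29387 to 47109 RPKM at 4 h, so they moved within this contrast too, and their part in it was not tested.

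With all libraries, calls between skewing conditions were found only between Th2 and Th0. In a fit of the 18 cultures that adjusted for time, the 6 time points of a condition stood as its libraries. They came from 1 pool of cells and are not biological replicates, so the p-values do not measure the spread between pools. In this fit, 14 of the 30 genes were higher in Th2 than in Th0 (background 12.9%) and none was lower (background 16.7%). They were 11 core genes, Snrpd2, Snrpd1, Snrpa1, Snrpd3, Sf3b5, Sf3b6, Snrpb, Snrpb2, Sf3b3, Snrpf and Sf3a3, and the SR genes Srsf9, Srsf7 and Srsf3. The differences were small, from 0.24 (Srsf3) to 0.54 ± 0.11 (Snrpd2; limma, adjusted p = 0.0016) on the log2 scale, and none reached 2-fold. The median difference was 0.29 for the core genes and 0.13 for the SR genes, against 0.00 for all 10737 genes tested. Between Th2 and Th1, none of the 30 genes was called higher (background 3.49%) or lower (background 8.71%), with 5 at an unadjusted p under 0.05. The same held for Th1 against Th0 (background 0.522% higher and 1.75% lower), with 5 at an unadjusted p under 0.05. Most estimates still lay above 0, in 27 of 30 genes for Th2 against Th1 and in 25 of 30 for Th1 against Th0. For Th2 against Th1 the median was 0.18 for the core genes and 0.04 for the SR genes, against 0.02 over all genes. For Th1 against Th0 these medians were 0.12, 0.04 and −0.01. Without the Th2 library of 24 h, 18 genes were higher and 1, Sf3b1, was lower in Th2 than in Th0, with 12 of the 14 genes shared, and Srsf9, Sf3a1, Snrpd3 and Snrpb were higher in Th2 than in Th1. Leaving out 1 time point gave 5 calls without 4 h, 6 without 8 h, 6 without 12 h, 7 without 16 h, 12 without 20 h and 20 without 24 h for Th2 against Th0.

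At 8 h the order of the conditions was clearest. Snrpa was at 36.2 RPKM in Th0, 63.6 in Th1 and 99.2 in Th2, and Snrpa1, Snrpb, Sf3a1, Sf3a2 and Sf3b4 followed the same order. Th0 was the lowest of the 3 cultures in 28 of 30 genes, against 41.6% of all genes tested and 78.4% of the 3447 genes called higher at 24 h than at rest. Th2 was the highest in 23 of 30 genes, against 40.5% and 66.4% of those sets. The median difference between Th2 and Th0 at 8 h was 0.71 for the core genes, 0.33 for the SR genes and 0.45 for the genes called higher at 24 h. At 20 h Th2 exceeded Th0 in 19 of 30 genes, against 49.5% of all genes tested and 70.4% of those called higher at 24 h. At 24 h it did so in 13 of 30, against 40.9% and 53.6%. Each of these is a comparison of 1 library with 1 library and has no replicate check; for the 11 genes whose values were whole reads, the ratio of Th2 to Th0 at 8 h lay above 1 in 10 and below 1 in 1 beyond a 95% interval that covers counting error only. When only 12 to 24 h were fitted, 2 of the 14 calls remained.

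**Figure D3:**
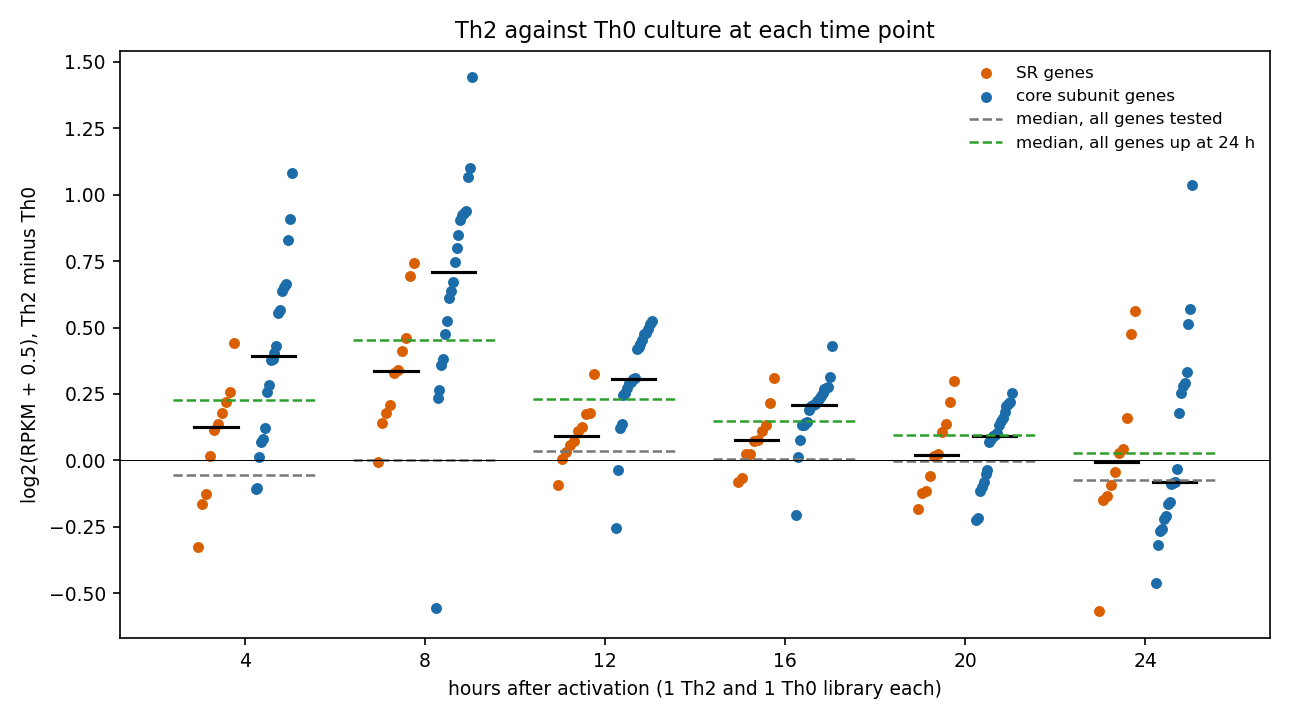
Difference in log2(RPKM + 0.5) between the Th2 and the Th0 culture at each time point (hours, horizontal axis), with 1 point per gene, 10 SR and 20 core genes, and a black bar at the median of each; dashed lines are medians over all genes tested and over all genes called higher at 24 h than at rest. The core genes had their largest median, 0.71, at 8 h and a median near 0 at 24 h.

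The fate of the mRNAs was followed in the 4 actinomycin libraries, with 1 library per hour. The p-values of the slopes measure the scatter around a line, moderated over all genes, and not the spread between replicates. RPKM is relative to the mRNA that is left, so a slope is relative to the bulk of mRNA, and the median slope over 10571 genes was 0.002 log2 units per hour. Genes with mRNAs known to be short-lived or long-lived served as a check, in lists chosen with earlier results of these data known. Of the short-lived, 12 of 15 tested fell and none rose, with Nfkbia at −0.60, Tnfaip3 at −0.50, Dusp1 at −0.48 and Myc at −0.42 per hour. Of 16 genes known for long-lived mRNAs 1, Actb, fell and none rose.

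Of the 30 genes, 5 fell after actinomycin (background 12.0%) and 1 rose (background 8.95%). Both counts are near or below the shares over all genes and are no result about the set as a whole. The steepest falls were in 2 SR genes. Srsf3 (ENSMUSG00000071172.13; chromosome 17, 29032628 to 29043373) was at 413, 324, 262 and 178 RPKM at 0, 1, 2 and 4 h, which is 43.2% of its start at 4 h. It fell by 0.30 ± 0.06 log2 units per hour (limma, adjusted p = 2.34e-05), with a higher slope in 96.7% of all genes tested, and its exact permutation p over the 24 orders of the libraries was 0.0417, the smallest they can give. Srsf7 (ENSMUSG00000024097.11; chromosome 17, 80200080 to 80207307) was at 172, 116, 92.6 and 76.1 RPKM and fell by 0.28 ± 0.06 per hour (limma, adjusted p = 3.92e-05; exact permutation p = 0.0833). Its ratio to 0 h, from whole reads, was 0.672 at 1 h and 0.441 at 4 h (95% interval 0.424 to 0.459, counting error only). Both were lower at each later time, and Srsf7 fell most in the first hour.

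Srsf11 (ENSMUSG00000055436.18; chromosome 3, 158010473 to 158036639), which was not called during activation, was the only one of the 30 genes to rise. It was at 159, 148, 185 and 308 RPKM, with 194% of the start left at 4 h (slope 0.26 ± 0.06 per hour, limma, adjusted p = 0.000208, exact permutation p = 0.0833). The rise rested on the last library: without it the slope was 0.11 (limma, adjusted p = 0.634). The calls of Srsf3 and Srsf7 were lost only without the 0 h library, where their slopes were −0.29 and −0.19.

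Of the core genes, Snrpd1 (−0.22 ± 0.06), Sf3b4 (−0.18 ± 0.06) and Sf3b3 (−0.16 ± 0.06) fell. Snrpd1 was at 205, 239, 202 and 120.1 RPKM, so its fall rested on the 4 h library, without which the slope was −0.01. Sf3b4 was at 83.3, 83.2, 55.8 and 54.0 RPKM and Sf3b3 at 132, 113, 90.3 and 84.6 RPKM. Each of these 3 calls was lost under 4 to 7 of 13 alternatives. No core gene rose; the steepest positive slopes, none of them called, were 0.08 ± 0.06 in Snrpa, 0.08 ± 0.06 in Snrpf and 0.07 ± 0.06 in Snrpd3. Sf3b1, which fell during activation, had a slope of 0.00 ± 0.06, and Srsf5 one of −0.03 ± 0.06.

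The median slope was −0.06 for the 10 SR genes and −0.01 for the 20 core genes. At 1 h, 9 of 10 SR genes and 4 of 20 core genes were below their start, against 57.6% of all genes tested, and the median log2 change was −0.16, 0.18 and −0.05. At 4 h, 8 of 10 and 10 of 20 were below, against 50.1%. The other SR genes had uncalled slopes, from −0.12 in Srsf9 to 0.00 in Srsf4. The log2 difference between the 1 h and 0 h libraries had a Spearman rho with GC content of 0.41 across 10326 genes, which are not independent, and the SR genes have a median GC content of 42.8% and the core genes of 47.1%. After centring in GC bins the median slopes were −0.02 and 0.00, Srsf3, Srsf7 and Srsf11 stayed past the threshold, and Snrpd1 did not.

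The 0 h library also stood apart from the cultures of 16 h in some of these genes. Srsf3 was at 413 RPKM there against 292 to 338 in Th0, Th1 and Th2 at 16 h, and 16 of 30 genes were above all 3 cultures, against 28.0% of all genes tested.

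**Figure D4:**
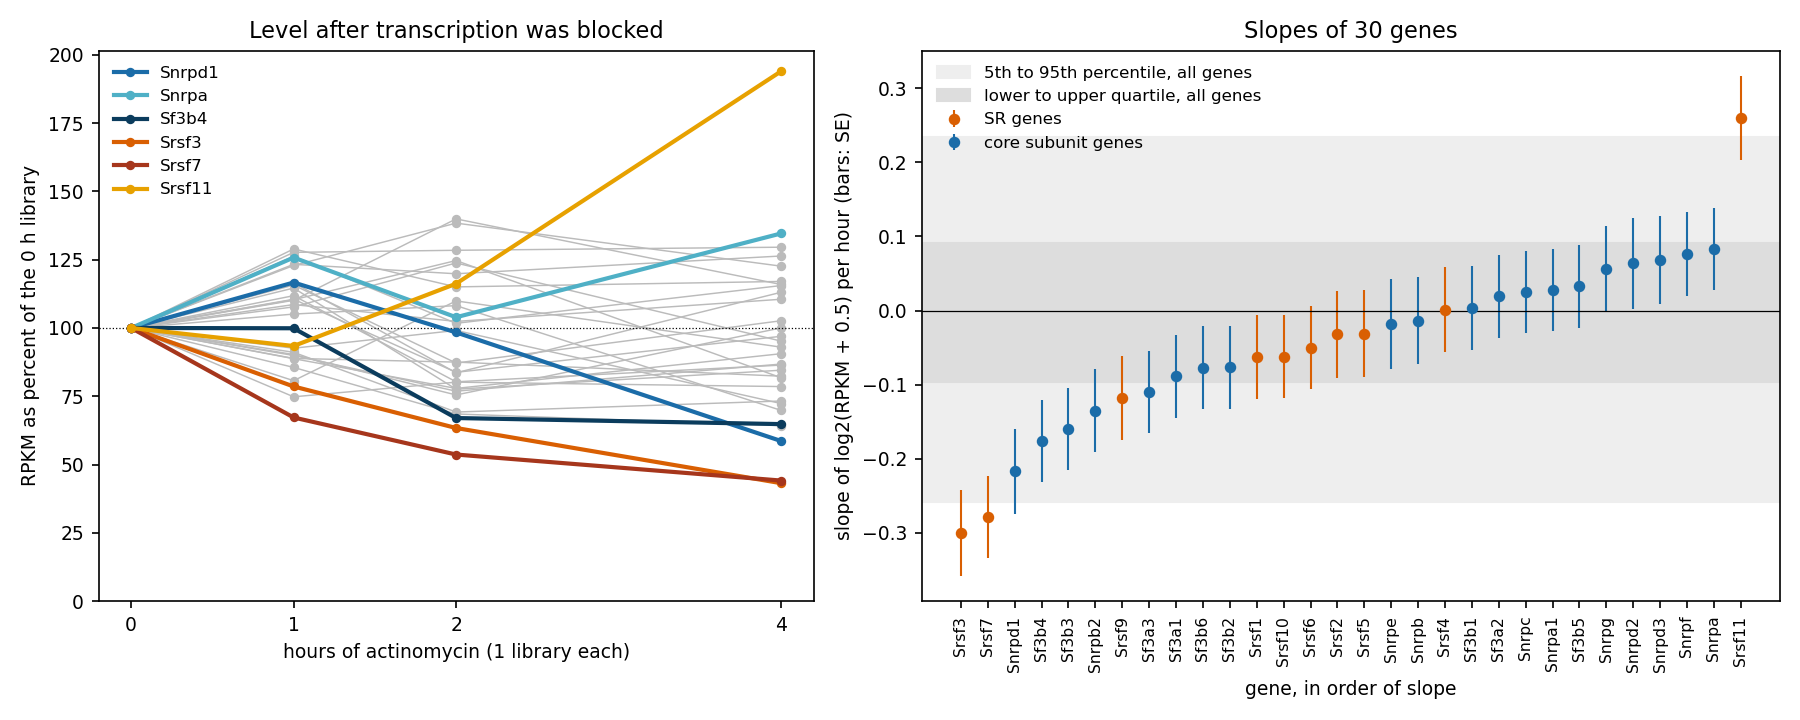
Left, RPKM as a percentage of the 0 h library against hours of actinomycin, 1 library each, for 30 genes, with 6 in colour; right, slope of log2(RPKM + 0.5) per hour for each gene with its standard error, in order, with SR genes in orange, core genes in blue, and grey bands for the middle of all genes tested. Srsf3 and Srsf7 ended at 43.2% and 44.1% of their start and Srsf11 at 194%, and their slopes lay outside the band from the 5th to the 95th percentile of all genes.

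The annotated transcripts (GENCODE M21, GRCm38) were described by features that the choice of genes did not use. Transcripts marked for nonsense-mediated decay were annotated for 9 of 11 SR genes and 5 of 20 core genes, against 30.5% of the 10279 genes tested that have a coding transcript. Transcripts with a retained intron were annotated for 8 of 11 SR genes and 16 of 20 core genes, against 61.7% of those genes. The AU-rich pentamer ATTTA, a letter match only, was present in the 3′ UTR of 9 of 11 SR genes and 10 of 20 core genes, against 69.7%. The 3′ UTRs were longer in the SR genes, with a median of 1536 bases against 416.5 in the core genes and 1145 over all. Sites of the 3 SR genes with called slopes are shown with the match in capitals; Srsf7 alone of these held the longer form TATTTAT.

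Srsf3, base 247 of its 3′ UTR: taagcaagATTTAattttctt

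Srsf7, base 322 of its 3′ UTR: attggccaTATTTATatgggcct

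Srsf11, base 408 of its 3′ UTR: ggtgacctATTTAatggtctt

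Srsf3 had 4 such sites, Srsf7 3 and Srsf11 3. The other SR genes tested ranged from 0 in Srsf4 and Srsf9 to 10 in Srsf1 and 11 in Srsf10, whose slopes were −0.06 each. Their 3′ UTRs were of unlike length, and a relation of these numbers to the slopes was not tested.

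Other genes of the pathway were counted from lists. Beside these counts, 31.6% of all genes tested were higher and 33.6% lower at 24 h, with a median log2 change of −0.04, and 8.95% rose and 12.0% fell after actinomycin. Of 17 proteins that assemble snRNPs, such as those of the SMN and PRMT5 complexes, 16 were higher at 24 h and none was lower, led by Gemin4 (2.16), Gemin6 (1.74), Wdr77 (1.74) and Gemin5 (1.56), and 4 fell after actinomycin, among them Gemin4 (−0.55 per hour) and Phax (−0.37). Of 23 proteins of the U4/U6.U5 tri-snRNP and Lsm rings in the table, 19 were higher and none lower, led by Prpf31 (1.71) and Nhp2l1 (1.64), and 6 fell after actinomycin, with Lsm8 at −0.38 per hour. Of 21 other U1, U2 and minor spliceosome proteins, 13 were higher, led by U2af1 (1.25) and Snrnp35 (1.18), and 1 was lower, and after actinomycin 1 rose and 3 fell. Of 19 Prp19 complex and catalytic-step factors, 9 were higher, with Plrg1 at 1.31, and 2 were lower, with Syf2 at −0.61; Cdc5l (−0.49) and Crnkl1 (−0.43) had the steepest of 6 falls after actinomycin, where 1 rose. Of 25 hnRNP proteins, RNA packaging and splicing factors that often oppose SR proteins, 16 were higher, with Hnrnpll at 1.52 and Hnrnpab at 1.43, and 2 were lower, with 2 rises and 3 falls after actinomycin.

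Of 21 kinases and partners of the SR proteins, 6 were higher and 8 lower at 24 h, with a median of −0.18, and 1 rose and 3 fell after actinomycin. These counts lie near or below the shares over all genes and are no result about the list. The kinases Clk1 (−1.44 ± 0.30), Srpk2 (−1.06 ± 0.22) and Clk4 (−1.01 ± 0.18) were lower, and Rnps1, a part of the exon junction complex, was higher (1.19 ± 0.19). After actinomycin Tra2a (−0.27) and Tra2b (−0.25), SR-like splicing activators, fell, and Srrm2, a large scaffold of nuclear speckles, rose (0.29). Of 15 genes of nonsense-mediated decay, 5 were higher at 24 h, with the exon junction genes Magohb (1.69), Magoh (1.16) and Rbm8a (1.08) leading, and 3 were lower, among them the kinase Smg1 (−1.21); 2 rose and 4 fell after actinomycin. With 15 genes, the counts at 24 h are near the shares over all genes or below them.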

How the data were processed

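RPKM values per gene were deposited by the authors for all 24 libraries in 1 table. The submitters' notes name BWA and GRCm38; the counter, the annotation and the strand setting are not given in the sources used here. Genes averaging 1 RPKM or more were tested as log2(RPKM + 0.5) with limma 3.58.1 (R 4.3.3; intensity trend, Benjamini-Hochberg), so fold changes of low genes are understated. Time points were fitted over 20 libraries with the 3 cultures of a time as its libraries, conditions over 18 cultures adjusting for time, and actinomycin as a slope over 4 libraries. With 4 libraries the exact two-sided permutation test cannot go below 0.0417. Other work used Python 3.11.15, numpy 2.4.6, pandas 2.3.3, scipy 1.17.1 and matplotlib 3.10.9. Whole reads were recovered for 11 of the genes from the steps of low values, and 26.1% of 16823 genes had values that were whole multiples of 1 step within 0.001; intervals cover counting error only.

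Every SR gene is named. Core genes are named where past the threshold between conditions, among the 3 largest rises or falls at 4 h, 24 h or from 4 to 24 h, or among the 3 steepest slopes each way, and up to 4 examples are named of each other list; further core genes and slopes were chosen after their values were seen. Members and lists were chosen with earlier results of these data known. The scripts were tested on simulated data. Alternatives were other pseudocounts, filters, scalings, trend, samples and, chosen after seeing the data, GC-bin centring, the condition as a block from 4 to 24 h and leaving out the Th2 library of 24 h.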

Additional observations from a re-analysis of the deposited data

How the results depend on the processing

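Of 3058 values of genes under alternatives, 2849 kept their sign and side of the threshold, 195 fell below it, 7 passed it, and 7 that were not called changed sign. These were Srsf11 at 24 h (−0.10 under quantile normalization) and the slopes of Srsf2, Srsf4, Srsf5 and Srsf10, and 0 called values reversed. The counts of changed genes at 12, 16, 20 and 24 h and from 4 to 24 h stayed within 1.5 times their values under the alternatives run. Quantile normalization moved the median of all genes at 24 h by 0.16, median-of-ratios scaling by 0.13, and upper-quartile scaling that at 20 h by −0.13. At 4 h, 2 genes were called, against 5 with median-of-ratios scaling, 4 with GC-bin centring and 1 when only the libraries of both time points were fitted; leaving out a resting library or a condition gave 0 to 7. At 8 h, 23 were called, against 10 when only both time points were fitted and 12 to 25 with a library or condition left out. Between Th2 and Th0, 14 were called, against 9 without a filter, 9 with quantile normalization, 2 from 12 to 24 h only, and 5 to 20 with a time point left out. Between Th2 and Th1, 0 were called by limma (5 at an unadjusted p under 0.05), against 1 under upper-quartile scaling, 1 under GC-bin centring, 3 under median-of-ratios scaling, 4 without the Th2 library of 24 h, and 0 to 3 with a time point left out. After actinomycin, 6 were called, against 3 without a filter and 2 to 9 with a library left out, and the median SR slope of −0.06 ran from −0.18 to −0.020 with a library left out. Except where fewer samples were fitted, the cause was not tested.

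Each culture and each actinomycin time has 1 library, which limits the precision, and when 1 resting library is left out, the spread of the cultures stands in for that of rest. The labels give no replicate numbers that groups share. The fits between conditions already matched cultures by time, and with the condition as a block over the 18 cultures, added after seeing the data, 27 genes changed from 4 to 24 h, the same 27 as without it.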
